A study of Danio rerio with 4 samples.

Results

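The transcripts described here are those of the zebrafish mitochondrial genome, taken as every row of the deposited expression table whose chromosome is given as MT. They comprised 31 of the 16405 rows, namely 13 mRNAs, 2 rRNAs and 16 tRNAs. The mRNAs matched all 13 protein genes of the mitochondrial chromosome in RefSeq, which also lists 2 rRNAs and 22 tRNAs, so that 6 tRNAs were not analysed here. Livers of fasted larvae at 6 dpf (days post-fertilization) were compared between *pex5*-/- (labelled pex5 KO, replicates 1 and 2) and WT (labelled wild type, replicates 1 and 4), with 1 library per replicate and fasting common to both genotypes. The *pex5*-/- line descends from a founder made with CRISPR/Cas9 that carries a small deletion predicted to truncate the peroxisomal import receptor, and the deletion is present in all cells of the larva rather than in hepatocytes alone. The *pex5* transcript itself was not analysed here, and the labels were therefore taken without a check on its level. The labels do not say whether replicates came from separate pools of animals, and the p-values below measure the spread between these libraries, which may in part be technical.

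The mitochondrial genome is a small circle that encodes subunits of the respiratory chain and of ATP synthase, together with the rRNAs and tRNAs that translate them inside the organelle. Both strands are transcribed as long precursors, and most mRNAs and rRNAs are released when the tRNAs that lie between them are cut out. The enzymes for transcription, processing and translation are all encoded in the nucleus and imported, so the amount of a mature mitochondrial transcript depends on both genomes. Most mitochondrial mRNAs of vertebrates carry short poly(A) tails, and the rRNAs shorter ones. The mRNAs of *mt-atp8* with *mt-atp6* and of *mt-nd4l* with *mt-nd4* are read as shared transcripts with overlapping reading frames.

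The libraries were made with CEL-Seq2, which primes RNA at its poly(A) tail and tags every molecule with a random barcode (UMI), so that each one counts as 1 read near its 3′ end whatever its length. The values were log2(TMM + 1), where TMM is the read count after scaling by the trimmed mean of M-values. Unlogged, 1 read was worth from 0.691 to 0.785 TMM, and the libraries held from 1217737 to 1425834 reads, of which from 452851 to 519607 came from the mitochondrial genome. Levels below are in TMM and shares are in percent of all reads of a library, which equals the share of the summed 2^value - 1. All 20 hepatocyte markers were listed, with *hp* at 0 reads in 1 library or more, and they took from 15.7% to 21.7% of the reads. Every other marker list took at most 0.451%, the level of the exocrine pancreas list in WT replicate 4. In these bulk samples, fewer cells of a type and less RNA per cell cannot be told apart.

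RNA of the mitochondrial genome made up at least 34.3% of every library, and a single rRNA accounted for 75.1% to 77.1% of it. The 31 rows together took 37.0% and 34.3% of the reads in *pex5*-/- replicates 1 and 2, against 37.5% and 37.2% in WT replicates 1 and 4. The exact binomial 95% intervals, which cover counting error only, were 34.2% to 34.4% for *pex5*-/- replicate 2 and 37.1% to 37.3% for WT replicate 4. Both *pex5*-/- libraries were thus below both WT libraries, with a difference of -1.68 percentage points, but the *pex5*-/- libraries were themselves 2.69 points apart. An exact two-sided permutation test gave p = 0.333, the smallest value that 2 libraries against 2 allow, and 0.714 after Benjamini-Hochberg adjustment over the 15 shares compared. When the 10 most abundant rows outside the mitochondrial genome were left out of the total, the difference was 0.0676 points, and without the most abundant rRNA it was 0.0325 points. It was -3.03 points without *pex5*-/- replicate 1 and -0.34 points without *pex5*-/- replicate 2. Of the 15 shares compared, 7 did not overlap between the genotypes, where 16.9% of all genes were higher and 13.5% lower without overlap. Several of the shares contain one another, so the 7 are not separate results.

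By class, the order of the libraries was not the same. The 13 mRNAs took 8.01% and 7.28% of the reads in *pex5*-/- replicates 1 and 2, against 7.78% and 8.32% in WT replicates 1 and 4. The 2 rRNAs took 28.8% and 26.9% in *pex5*-/- and 29.6% and 28.7% in WT. For the 16 tRNAs the shares were 0.141% and 0.0977% in *pex5*-/- and 0.0933% and 0.125% in WT. The genotypes overlapped in each of the 3 classes, with an exact permutation p of 0.667 for each. The log2 ratio of summed rRNA to summed mRNA, which does not depend on the scale of a library, was 1.85 and 1.89 in *pex5*-/- and 1.93 and 1.79 in WT. Its mean differed by 0.01 between the genotypes, while the WT libraries were -0.14 apart. The libraries were primed at poly(A) tails, so reads of the rRNAs need not follow the amounts of these RNAs.

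**Figure D1:**
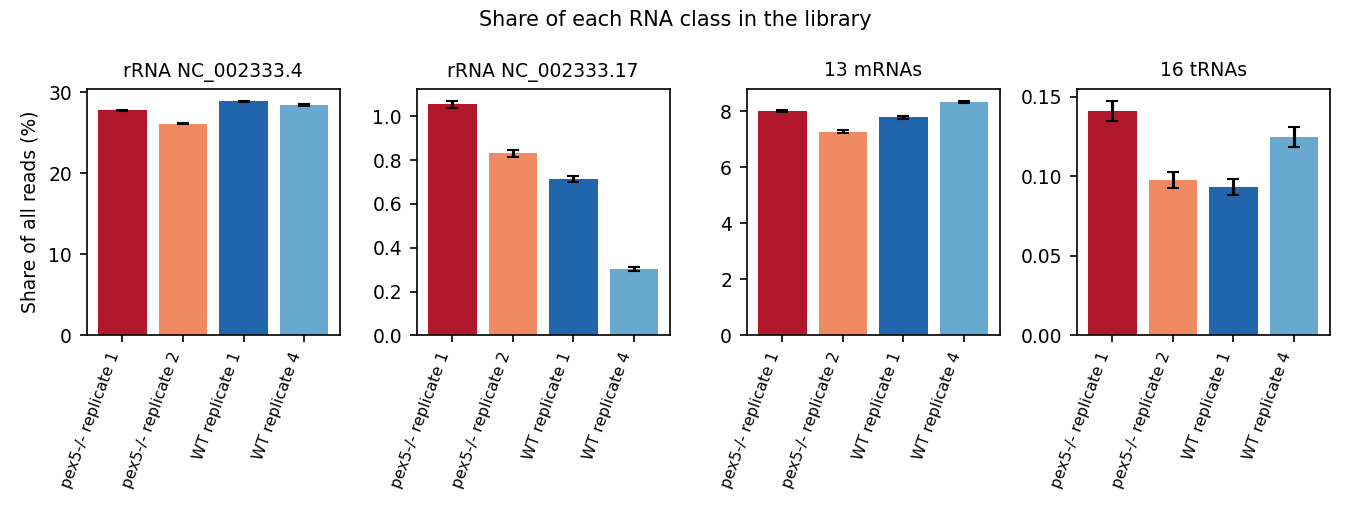
Share of all reads (%) taken by each rRNA, the summed mRNAs and the summed tRNAs of the mitochondrial genome in the 4 libraries, with separate vertical axes that start at 0 and exact binomial 95% intervals as error bars. The rRNA NC_002333.4 took from 26.1% to 28.9% of a library, while the rRNA NC_002333.17 ranged from 0.304% in WT replicate 4 to 1.05% in *pex5*-/- replicate 1.

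The 2 rRNAs, the RNA core of the small and the large mitochondrial ribosomal subunit, are listed without gene names and are given here as NC_002333.4 (ENSDARG00000080337) and NC_002333.17 (ENSDARG00000082753), because no table used here says which is which. NC_002333.4 was the row with the most reads in the table, at 293353 and 257129 TMM in *pex5*-/- replicates 1 and 2 and 275009 and 271904 TMM in WT replicates 1 and 4. The genotypes overlapped, and the log2 difference was 0.01 (standard error 0.08, 95% interval -0.21 to 0.22, adjusted p = 1.00 in limma, by the Benjamini-Hochberg method over all genes tested). As a share of all reads it was lower in both *pex5*-/- libraries, at 27.8% and 26.1%, than in WT, at 28.9% and 28.4%, so its direction depended on the scaling.

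NC_002333.17 varied more between libraries than the other rRNA or any of the mRNAs. It had 11123 and 8187 TMM in *pex5*-/- replicates 1 and 2, from 14799 and 11843 reads, and 6787 and 2907 TMM in WT replicates 1 and 4, from 9565 and 3702 reads. Both *pex5*-/- libraries lay above both WT libraries, and the highest library exceeded the lowest by 3.83 times. The log2 difference of 1.1 (standard error 0.43, 95% interval 0.01 to 2.2) had an unadjusted limma p of 0.0490 and an adjusted p of 1.00, and the 2 WT libraries were further apart, at -1.22. Leaving out WT replicate 1 gave 1.71 and leaving out WT replicate 4 gave 0.49, each with a single WT library left. Counting error was small here, the standard error from the reads alone being 0.03 for the difference between the WT libraries on the log2 scale.

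The ratio between the reads of the 2 rRNAs, which need not be that of their amounts, varied accordingly. NC_002333.17 amounted to 3.79% and 3.18% of NC_002333.4 in *pex5*-/- replicates 1 and 2, against 2.47% and 1.07% in WT replicates 1 and 4. Relative to the summed mRNAs it stood at 13.2% and 11.4% in *pex5*-/- and at 9.15% and 3.65% in WT. The genotypes did not overlap in either ratio, with an exact permutation p of 0.333 and an adjusted p of 0.800 over the 12 ratios compared. The rRNA rows outside the mitochondrial genome held only 5 and 6 reads in *pex5*-/- and 5 and 6 reads in WT, too few for a comparison. Several marker lists differed between these libraries too. The summed hepatocyte markers had the same order of libraries in TMM, at 217367 and 213688 TMM in *pex5*-/- and 162390 and 150159 TMM in WT, but not in share of reads, at 20.6% and 21.7% in *pex5*-/- and 17.0% and 15.7% in WT. *apoa2* alone supplied 123993 and 118820 TMM of the sum in *pex5*-/- and 67534 and 71063 TMM in WT. Of the 18 hepatocyte markers tested, 9 had a higher and 9 a lower mean in *pex5*-/- (median log2 difference 0.01). Without overlap, 6 were higher (*apoa2*, *apoa4b.1*, *tfa*, *serpina1l*, *rbp4* and *gc*) and 3 lower (*fgb*, *fgg* and *ahsg2*). Of all genes tested, 16.9% were higher and 13.5% lower without overlap. Of 11 erythrocyte markers 10 were listed, with *hbae5* and *alas2* at 0 in some libraries. Their sums had the order of NC_002333.17, at 1932 and 1683 TMM in *pex5*-/- and 1117 and 515 TMM in WT. All 8 tested had a higher mean in *pex5*-/-, as had 1692 of all 3349 genes tested. Of the 8, 4 were higher without overlap, against 16.9% of all genes. Heart muscle markers had the reverse of the order of NC_002333.17, at 57.1 and 125 TMM in *pex5*-/- and 221 and 463 TMM in WT. Of these, 13 of 15 were listed, and 9 were at 0 in at least 1 library, among them *cmlc1*, *tnnt2a* and *nppa*. Of the 6 tested, 4 were lower without overlap (median log2 difference -2.54), against 13.5% of all genes. Biliary markers had the reverse order as well, at 798 and 827 TMM in *pex5*-/- and 864 and 1227 TMM in WT. All 7 were listed, with *krt8* and *epcam* at 0 in some libraries. Of the 4 tested, 2 were lower without overlap, against 13.5% of all genes. The macrophage and neutrophil markers had the order of NC_002333.17, at 11.3 and 7.60 TMM in *pex5*-/- and 4.26 and 3.93 TMM in WT. Of these, 6 of 10 were listed, each at 0 in at least 1 library. *mt-nd5* had the order of NC_002333.17, opposite to that of the heart muscle and biliary markers. The part of these cell types in the values of NC_002333.17 and *mt-nd5* was not tested.

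Of the 13 mRNAs, 7 encode subunits of complex I, the NADH dehydrogenase that passes electrons to ubiquinone and pumps protons. Their summed share of all reads was 3.72% and 2.95% in *pex5*-/- replicates 1 and 2, against 3.03% and 3.97% in WT replicates 1 and 4. In both genotypes the replicates thus differed more than the genotype means, which were 0.16 points apart. *mt-nd4* (ENSDARG00000063917), which encodes a proton-pumping subunit of the membrane arm, contributed most of this spread. It had 18805 and 12855 TMM in *pex5*-/- replicates 1 and 2 and 13222 and 20609 TMM in WT replicates 1 and 4. *pex5*-/- replicate 1 thus resembled WT replicate 4, and *pex5*-/- replicate 2 resembled WT replicate 1, and the log2 difference was -0.09 (standard error 0.29, 95% interval -0.82 to 0.65). The 10 neuronal markers, none of them at 0 in any library, were arranged the other way, with summed levels of 81.9 and 723 TMM in *pex5*-/- and 984 and 86.4 TMM in WT. Of the epidermal markers 10 of 11 were listed, with *agr2* and *epcam* at 0 in some libraries, and their sums of 525 and 277 TMM in *pex5*-/- and 285 and 766 TMM in WT had the library order of *mt-nd4*. Exocrine pancreas markers, with 15 of 16 listed and *cpa1* at 0 in some libraries, were likewise high in *pex5*-/- replicate 1 and WT replicate 4, at 2948 and 1950 TMM in *pex5*-/- and 1673 and 4313 TMM in WT. The part of these tissues in the values of *mt-nd4* was not tested.

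*mt-nd2* (ENSDARG00000063899), a membrane-arm subunit as well, had 9224 and 7224 TMM in *pex5*-/- and 6237 and 7945 TMM in WT. *mt-nd1* (ENSDARG00000063895), which helps to form the ubiquinone-binding site, had 3650 and 2725 TMM in *pex5*-/- and 2876 and 3013 TMM in WT. Both were highest in *pex5*-/- replicate 1 and overlapped between the genotypes, with log2 differences of 0.21 (standard error 0.20) and 0.10 (standard error 0.21). *mt-nd3* (ENSDARG00000063914), at 219 and 216 TMM in *pex5*-/- and 208 and 250 TMM in WT, had its highest and its lowest value in the WT libraries. *mt-nd4l* (ENSDARG00000063916) had 39.1 and 25.6 TMM in *pex5*-/- and 46.8 and 36.9 TMM in WT, from 37 to 66 reads per library. The ranges overlapped, and counting error alone is large at such numbers. *mt-nd4l* amounted to between 0.179% and 0.354% of *mt-nd4*, with which it shares a transcript whose 3′ end lies in *mt-nd4*.

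*mt-nd5* (ENSDARG00000063921), the largest subunit of the pumping arm, was the complex I transcript whose genotypes did not overlap. It had 846 and 671 TMM in *pex5*-/- replicates 1 and 2, from 1125 and 970 reads, and 568 and 477 TMM in WT replicates 1 and 4, from 800 and 607 reads. Both *pex5*-/- libraries were above both WT libraries, and the log2 difference of 0.53 (standard error 0.24, 95% interval -0.09 to 1.15) was larger than either difference between replicates, of -0.33 in *pex5*-/- and -0.25 in WT. It did not pass the test (unadjusted limma p 0.0790, adjusted p = 1.00). Without 1 of the libraries it was 0.37 at the least and 0.70 at the most, a range that follows from the replicate differences. *mt-nd6* (ENSDARG00000063922), which is encoded on the opposite strand and lies next to *mt-nd5*, had 6462 and 5395 TMM in *pex5*-/- and 5746 and 5597 TMM in WT. Its log2 difference was 0.06 (standard error 0.16), and the genotypes overlapped. Whether reads were counted by strand is not given in the sources used here, so reads of *mt-nd6* and reads antisense to it cannot be told apart. The ratio of *mt-nd6* to *mt-nd5* was 7.64 and 8.05 in *pex5*-/- and 10.1 and 11.7 in WT, without overlap (exact permutation p = 0.333, adjusted p = 0.800).

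Complex III, which passes electrons from ubiquinol to cytochrome c, has a single subunit encoded by the mitochondrial genome. This is cytochrome b, *mt-cyb* (ENSDARG00000063924), which had 5535 and 4850 TMM in *pex5*-/- and 5759 and 5034 TMM in WT. The 2 genotypes overlapped and differed by -0.06 (standard error 0.17, 95% interval -0.48 to 0.37) on the log2 scale. As a share of all reads, *mt-cyb* was 0.524% and 0.492% in *pex5*-/- and 0.604% and 0.526% in WT. These shares did not overlap (exact permutation p = 0.333, adjusted p = 0.714), but the margin was within counting error. The exact binomial 95% intervals were 0.512% to 0.536% for *pex5*-/- replicate 1 and 0.514% to 0.539% for WT replicate 4.

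Complex IV, the cytochrome c oxidase that reduces oxygen, contains 3 mitochondrially encoded subunits, and their transcripts together took a lower share of reads in both *pex5*-/- libraries, 2.27% and 2.39%, than in WT, 2.91% and 2.60%. The difference was -0.43 points (exact permutation p = 0.333, adjusted p = 0.714). *mt-co1* (ENSDARG00000063905), the catalytic subunit, had 8408 and 8240 TMM in *pex5*-/- replicates 1 and 2 and 12058 and 7837 TMM in WT replicates 1 and 4. WT replicate 1 alone was high, and without it the log2 difference of -0.22 (standard error 0.23) became 0.09. *mt-co2* (ENSDARG00000063908), which receives electrons from cytochrome c, had 11549 and 11657 TMM in *pex5*-/- and 12112 and 12854 TMM in WT. Both *pex5*-/- libraries were below both WT libraries by a small margin, with a log2 difference of -0.10 (standard error 0.12, 95% interval -0.42 to 0.21). *mt-co3* (ENSDARG00000063912) had 4036 and 3628 TMM in *pex5*-/- and 3588 and 4189 TMM in WT, and its log2 difference was -0.02 (standard error 0.17).

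Complex V, the ATP synthase, showed the reverse. *mt-atp6* (ENSDARG00000063911) encodes subunit a, which forms the proton path beside the rotor. It had 15760 and 14205 TMM in *pex5*-/- replicates 1 and 2, from 20970 and 20550 reads, and 11708 and 11744 TMM in WT replicates 1 and 4, from 16499 and 14956 reads. The *pex5*-/- libraries were both above the WT libraries, which were nearly equal. The log2 difference of 0.35 (standard error 0.13, 95% interval 0.03 to 0.68) exceeded both replicate differences, of -0.15 in *pex5*-/- and 0.00 in WT. With a library left out it lay between 0.28 and 0.43, a range that follows from these replicate differences and adds nothing to them. Its unadjusted limma p was 0.0390 and its adjusted p 1.00, so that it did not pass the test across all genes. With every library scaled to the same total outside the mitochondrial genome the difference was 0.22. The partner transcript *mt-atp8* (ENSDARG00000063910), encoding a small membrane subunit, had 24.1 and 19.4 TMM in *pex5*-/- and 12.8 and 21.2 TMM in WT, from 18 to 32 reads, and amounted to between 0.109% and 0.181% of *mt-atp6*.

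Within the mitochondrial mRNA, the genotypes did not overlap in the balance between complexes V and IV. The summed complex V transcripts amounted to 65.8% and 60.5% of the complex IV transcripts in *pex5*-/- replicates 1 and 2, against 42.2% and 47.3% in WT replicates 1 and 4. This ratio is free of the library total, and its log2 difference of 0.50 was larger than the replicate differences of -0.12 and 0.16. With 2 libraries per genotype its exact permutation p was 0.333, and 0.800 after adjustment. Of the 12 ratios compared, 5 did not overlap between the genotypes, where 16.9% of all genes were higher and 13.5% lower without overlap. Several of the ratios share a transcript, so the 5 are not separate results. Nearly all of the complex V sum was *mt-atp6*, so the ratio of complex V to complex IV is not separate from the result for that transcript. *mt-atp6* made up 18.6% and 19.8% of all mitochondrial mRNA reads in *pex5*-/- and 15.8% and 14.8% in WT. *mt-nd4* took 22.2% and 17.9% in *pex5*-/- and 17.8% and 25.9% in WT. Of the 13 mRNAs, 4 had a higher share of the mRNA reads in both *pex5*-/- libraries (*mt-nd2*, *mt-atp8*, *mt-atp6* and *mt-nd5*) and 1 had a lower share in both (*mt-nd4l*). With every library scaled to the same total of mitochondrial mRNA, 16.5% of all genes tested were higher and 14% lower without overlap, against 4 and 1 of these 13. For *mt-nd2*, *mt-atp8* and *mt-nd4l* the gap between the genotypes was narrow. The nearest *pex5*-/- and WT libraries had 10.1% against 9.98% for *mt-nd2* and 0.0462% against 0.0464% for *mt-nd4l*.

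**Figure D2:**
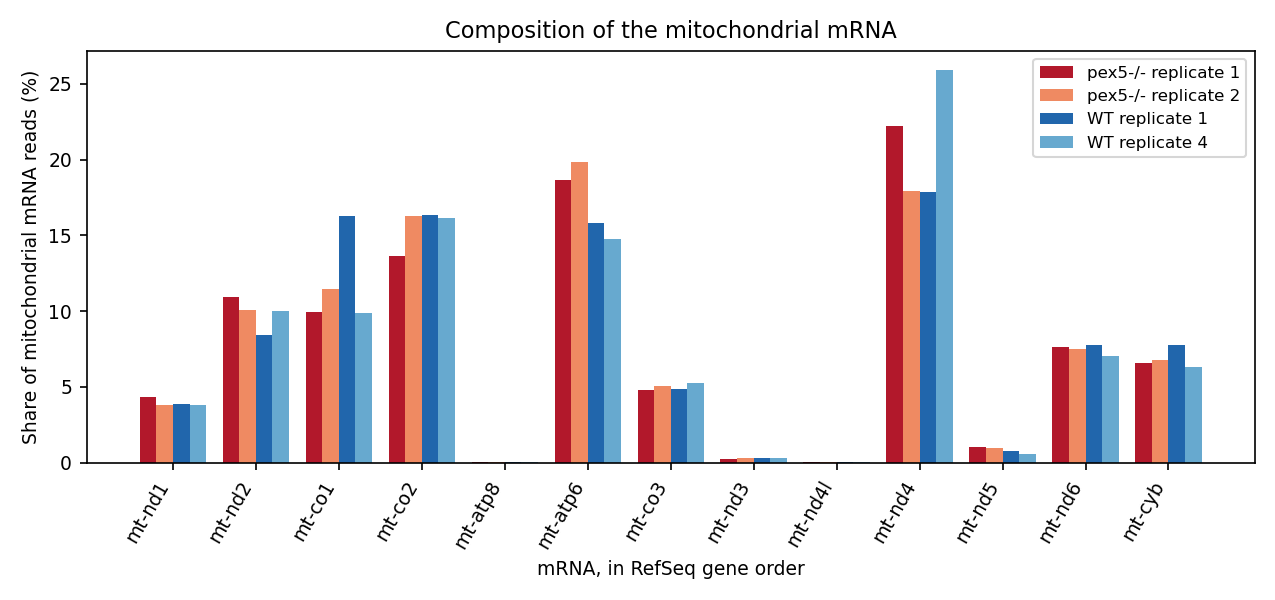
Share of the mitochondrial mRNA reads (%) taken by each of the 13 mRNAs, in the gene order of RefSeq, with a bar for each of the 4 libraries. *mt-atp6* was higher in both *pex5*-/- libraries (18.6% and 19.8%) than in both WT libraries (15.8% and 14.8%), and *mt-nd4* was high in *pex5*-/- replicate 1 and WT replicate 4.

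The tRNAs, which are cut from the precursors and carry amino acids to the mitochondrial ribosome, had few reads apart from a single row. The libraries were primed at poly(A) tails, so these reads need not follow the amounts of the mature tRNAs. NC_002333.9 (ENSDARG00000081369) had 1372 and 877 TMM in *pex5*-/- replicates 1 and 2, from 1826 and 1268 reads, and 816 and 1095 TMM in WT replicates 1 and 4, from 1150 and 1394 reads. The genotypes overlapped, with *pex5*-/- replicate 1 and WT replicate 4 high, and the log2 difference was 0.21 (standard error 0.31). The other 15 tRNA rows held 158 and 125 reads together in *pex5*-/- and 103 and 124 reads in WT. The tables used here do not pair these rows with an amino acid.

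Of the 16 tRNAs, 15 had reads, 6 reached a mean of 10 TMM and 6 had at most 3 reads in every library. NC_002333.10 (ENSDARG00000081443) had 36.8 and 28.3 TMM in *pex5*-/-, from 49 and 41 reads, and 20.6 and 21.99 TMM in WT, from 29 and 28 reads. Its libraries did not overlap between the genotypes, and the log2 difference was 0.58 (standard error 0.29, unadjusted limma p 0.0998, adjusted p = 1.00). NC_002333.13 (ENSDARG00000081938) was arranged the other way, with 6.01 and 7.60 TMM in *pex5*-/- and 9.22 and 17.3 TMM in WT, from 8 to 22 reads. NC_002333.21 (ENSDARG00000083312) was high in *pex5*-/- replicate 1 alone, at 27.8 TMM, against 9.68 TMM in *pex5*-/- replicate 2 and 9.93 and 7.07 TMM in WT. NC_002333.18 (ENSDARG00000082789) had 11.3 and 10.4 TMM in *pex5*-/- and 12.1 and 8.64 TMM in WT. NC_002333.1 (ENSDARG00000080128) had 14.3 and 13.1 TMM in *pex5*-/- and 10.6 and 16.5 TMM in WT. At 8 to 49 reads per library, counting error alone is large for these 5 rows. The remaining rows reached no more than 16 reads, and NC_002333.2 (ENSDARG00000080151) had 0 in all 4, which allows a share of up to 0.000246% in the shallowest library.

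**Figure D3:**
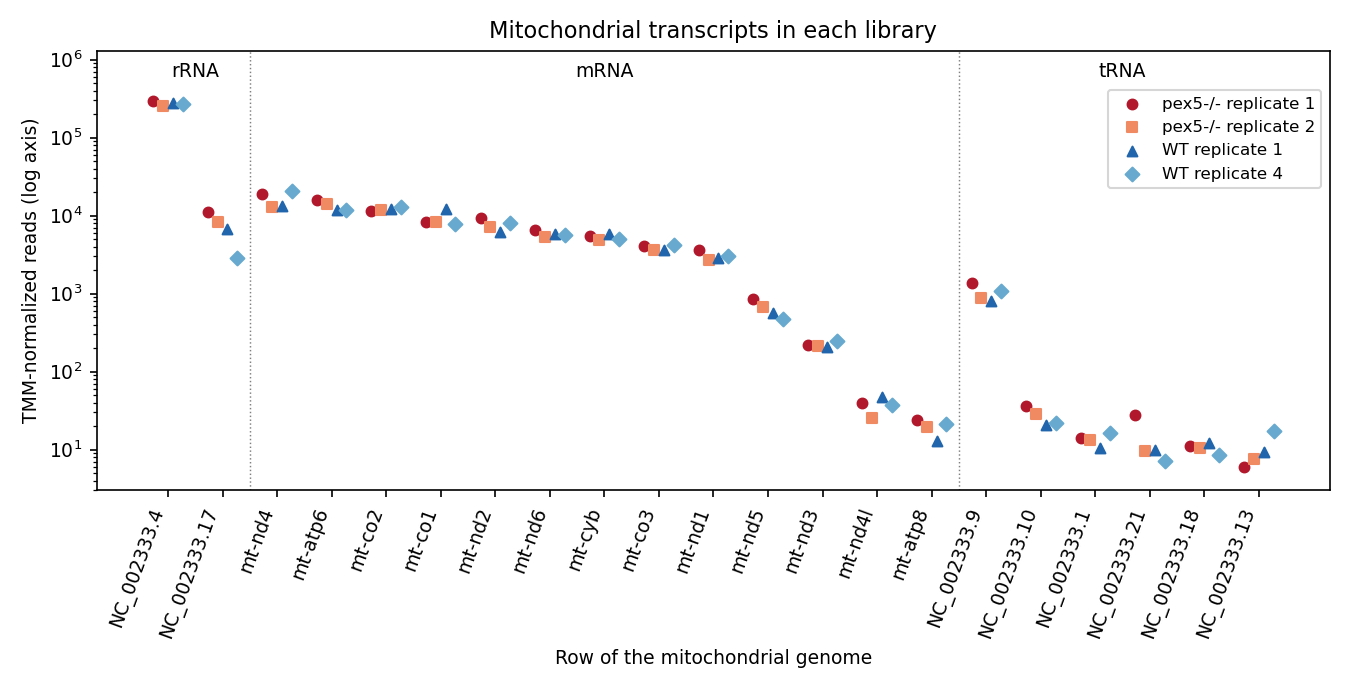
TMM-normalized reads on a log axis for the 21 mitochondrial rows with a mean of at least 10 TMM, grouped as rRNA, mRNA and tRNA, with a point for each of the 4 libraries. The levels ran from 293353 TMM for NC_002333.4 to 6.01 TMM for NC_002333.13, and the points of NC_002333.17 lay at 11123 and 8187 TMM for *pex5*-/- and at 6787 and 2907 TMM for WT.

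Considered together, the mitochondrial transcripts had no common direction between the genotypes. Of the 21 rows that reached the mean of 10 TMM, 13 had a higher and 8 a lower mean log2(TMM + 1) in *pex5*-/-, with a median difference of 0.06, where all 3349 genes tested had a median of 0.00. In limma, 0 of the 21 had an adjusted p under 0.05, as for all genes tested (0% in each direction). At an unadjusted p under 0.05 there were 2, *mt-atp6* and NC_002333.17, both higher, where 2.54% of all genes were higher and 1.07% lower at that threshold. With voom weights on the recovered reads, limma gave 0 of 21 at either threshold. Both *pex5*-/- libraries were above both WT libraries for 4 of the 21 (19.0%), compared with 16.9% of all genes, and below them for 2 (9.52%), compared with 13.5% of all genes. With every library scaled to the same total these counts were 4 and 5, against 12.96% and 19.3% of all genes, and with equal totals outside the mitochondrial genome they were 4 and 7, against 11.2% and 22.2%. The 4 higher rows were NC_002333.17, NC_002333.10, *mt-atp6* and *mt-nd5* under all 3 scalings, and NC_002333.13 and *mt-co2* were lower under all 3. With equal totals NC_002333.4, *mt-nd4l* and *mt-cyb* were lower as well, and with equal totals outside the mitochondrial genome *mt-co1* and *mt-nd3* also. Means were then higher for 9 and lower for 12 rows with equal totals, and for 8 and 13 with equal totals outside the mitochondrial genome. The share of higher rows was near that of all genes on the deposited scale, and so was that of lower rows.

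Replicates differed about as much as genotypes. Over the 21 rows the median size of the log2 difference was 0.21 between the genotype means, 0.30 between the *pex5*-/- libraries and 0.34 between the WT libraries. The first compares means of 2 libraries and the others compare single libraries. A difference of means is therefore expected to be the smaller when genotype has no effect. For 4 rows (*mt-atp6*, *mt-nd5*, *mt-co2* and NC_002333.10) the difference between genotypes was larger than both replicate differences. These 4 are among the rows without overlap given above. The same count was not made over all genes, so it cannot be said whether 4 is many. *pex5*-/- replicate 2 was below *pex5*-/- replicate 1 for 19 of the 21 rows in TMM and for 17 in share of reads. Between the WT libraries the direction was mixed, with 12 rows higher in replicate 4 and 9 in replicate 1. The difference between replicates exceeded 2 standard errors of counting for 12 of 21 rows in *pex5*-/- and for 12 of 21 in WT, so that for these rows the gap was larger than counting error.

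The libraries did not group by genotype in these transcripts. Over the 13 mRNAs, the root mean square log2 difference was 0.32 between the *pex5*-/- libraries and 0.37 between the WT libraries. Across genotypes it was 0.30 between *pex5*-/- replicate 1 and WT replicate 4, 0.31 between *pex5*-/- replicate 2 and WT replicate 4, 0.35 between *pex5*-/- replicate 2 and WT replicate 1, and 0.43 between *pex5*-/- replicate 1 and WT replicate 1. The distances within a genotype thus fell inside the range of those between genotypes, as a description of 13 transcripts that share their libraries and precursors. *pex5*-/- replicate 1 had the highest value of the 4 libraries for 11 of the 21 rows and *pex5*-/- replicate 2 for 0. The same library had the most RNA of the intestine markers, of which 9 of 11 were listed and 4 were at 0 in at least 1 library, with 1133 and 22.1 TMM in *pex5*-/- and 23.4 and 138 TMM in WT. The part of intestine in these values was not tested.

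**Figure D4:**
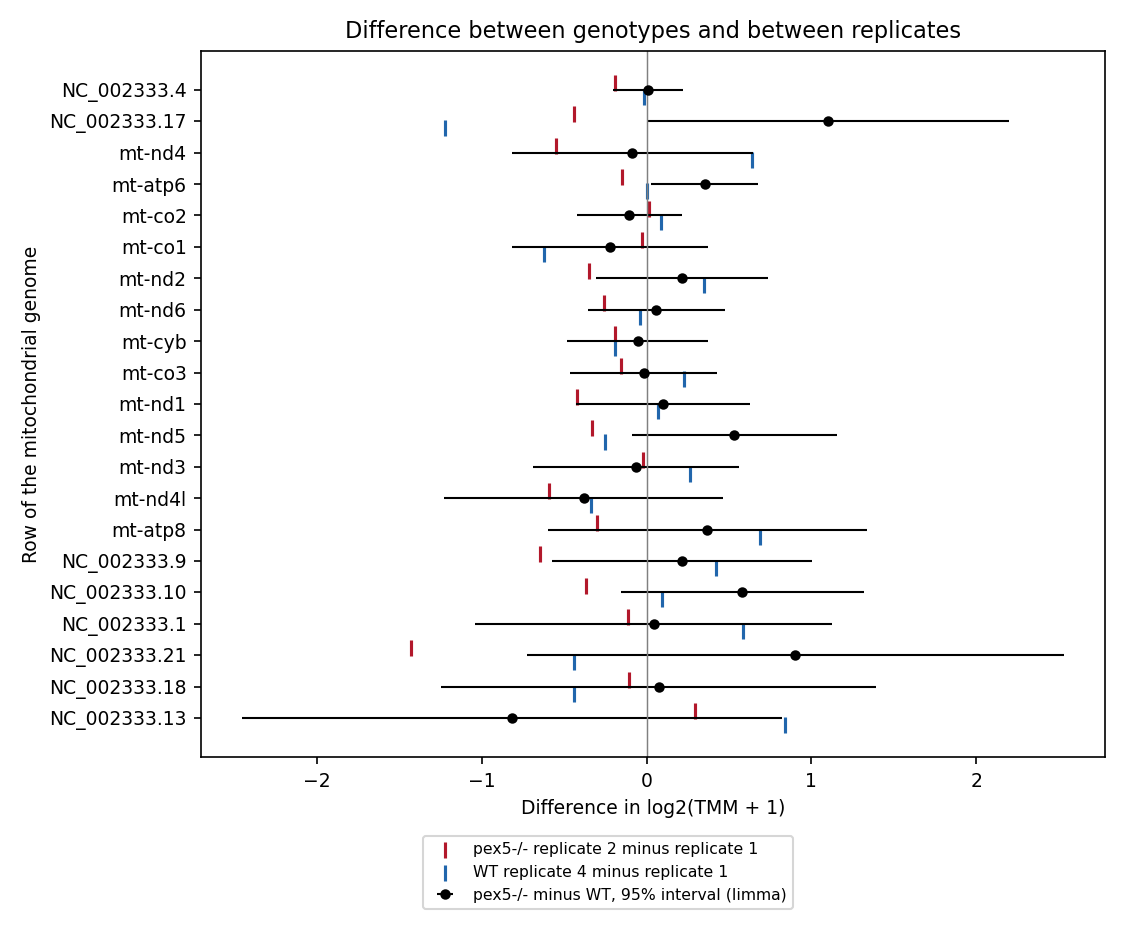
Difference in log2(TMM + 1) for the 21 mitochondrial rows, with the *pex5*-/- minus WT difference and its 95% limma interval as black points and lines, and the differences between the 2 *pex5*-/- and the 2 WT libraries as red and blue ticks. The interval of *mt-atp6* (0.03 to 0.68) and that of NC_002333.17 (0.01 to 2.2) lay above 0 before adjustment, and the difference of NC_002333.17 was no larger than the gap of -1.22 between the WT libraries.

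The nuclear genes that make and mature these RNAs were expressed at low levels at this depth. Of 16 genes for mitochondrial transcription and genome maintenance, 11 were listed and 3 reached a mean of 10 TMM, of which 2 were higher and 1 lower in *pex5*-/-. *tfam*, which packages mitochondrial DNA and activates its promoters, had 24.8 and 35.9 TMM in *pex5*-/- and 20.6 and 36.1 TMM in WT, with complete overlap. *tfb2m*, the factor that opens the promoter for the mitochondrial RNA polymerase, had 15.0 and 13.8 TMM in *pex5*-/- and 9.22 and 12.6 TMM in WT, from 13 to 20 reads. Its libraries did not overlap and differed by 0.39 on the log2 scale (standard error 0.43, limma adjusted p = 1.00). The polymerase gene *polrmt* was not analysed here.

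For processing and stability of mitochondrial RNA, 31 of 39 genes were listed and 5 were tested, 4 of them with a higher and 1 with a lower mean in *pex5*-/-. *grsf1*, an RNA-binding protein of mitochondrial RNA granules, had 20.3 and 13.8 TMM in *pex5*-/- and 21.998 and 33.8 TMM in WT, with a log2 difference of -0.67 (standard error 0.37). *hsd17b10*, a subunit of mitochondrial RNase P, which cuts the 5′ ends of the tRNAs, had 30.1 and 22.8 TMM in *pex5*-/- and 21.3 and 18.8 TMM in WT, with a log2 difference of 0.37 (standard error 0.30). Neither gene overlapped between the genotypes, and both had an adjusted limma p of 1.00. Reads per library ran from 20 to 43 for *grsf1* and from 24 to 40 for *hsd17b10*, so counting error alone is large. *slirp*, which with *lrpprc* stabilizes the mRNAs, had 58.6 and 41.5 TMM in *pex5*-/- and 44.0 and 55.0 TMM in WT and differed by 0.00 (standard error 0.31). The reads of *lrpprc* numbered from 2 to 5 per library, and *mtpap*, the mitochondrial poly(A) polymerase, had 0 reads in all 4, so neither could be compared.

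Of 21 genes for the insertion and assembly of mitochondrially encoded subunits, 18 were listed and 5 were tested, and all 5 of these had a higher mean in *pex5*-/-, with a median log2 difference of 0.29. *surf1*, an assembly factor of cytochrome c oxidase, had 14.3 and 13.8 TMM in *pex5*-/- and 10.6 and 7.07 TMM in WT. *coa8*, another factor of this enzyme, had 13.5 and 12.4 TMM in *pex5*-/- and 10.6 and 10.2 TMM in WT. *tmem126a*, which takes part in complex I assembly, had 21.0 and 16.6 TMM in *pex5*-/- and 14.2 and 16.5 TMM in WT. These 3 genes did not overlap between the genotypes, and their log2 differences were 0.63 (standard error 0.50), 0.29 (standard error 0.44) and 0.27 (standard error 0.34), with an adjusted limma p of 1.00 for each. They had from 9 to 20, from 13 to 18 and from 20 to 28 reads per library. Counting error alone is large at such numbers. For *tmem126a* the nearest libraries had 16.59 TMM in *pex5*-/- and 16.49 TMM in WT. Among all 3349 genes tested, 1692 had a higher mean in *pex5*-/-, and 16.9% were higher without overlap. *oxa1l*, which inserts the new subunits into the inner membrane, never exceeded 3 reads. Over all 3 lists, 0 of the 13 genes tested had an adjusted p under 0.05 in limma.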

How the data were processed

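Total RNA of fasted *pex5*-/- and WT larval livers was sequenced by CEL-Seq2 from 4 libraries. The authors extracted UMIs with UMI-tools 1.1.1, trimmed with Trim Galore 0.6.7, mapped to GRCz11 with HISAT2 2.2.1, counted per gene with featureCounts 2.0.1, removed UMI duplicates, normalized by TMM (edgeR) and deposited the values as log2(TMM + 1). Strand and multi-mapping settings and the annotation release are not given in the sources used here, so reads from nuclear copies of mitochondrial DNA could not be assessed. Unlogged values were whole multiples of 1 step (tolerance 0.01) for 100% of rows, which gave the reads. Genes averaging at least 10 TMM were fitted with limma 3.58.1 (lmFit, eBayes with trend) in R 4.3.3, and p-values were adjusted by Benjamini-Hochberg over all 3349 genes. The fit was also run on simulated reads with large set changes and the same spread for all genes. That run does not show how the fit performs on these libraries. Shares and ratios were compared by exact two-sided permutation in scipy 1.17.1. Percentages have exact Clopper-Pearson 95% intervals. Alternatives covered pseudocount, filter, scaling, voom weights, denominators and each library left out. Every mitochondrial row was a member. Values in each library are given for rRNAs, mRNAs and tRNAs with a mean of at least 10 TMM. From the nuclear lists, genes at this mean without overlap (at most 5 in each direction) and *tfam*, *tfb2m*, *polrmt*, *lrpprc*, *slirp*, *mtpap* and *oxa1l* are named. Members and lists were chosen with earlier results of these data known. RefSeq (GRCz12tu) gave the gene order and the number of mitochondrial genes in each class. A floor of 3 reads was used.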

Additional observations from a re-analysis of the deposited data

How the results depend on the processing

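No paired analysis was possible because the genotypes share only replicate number 1. The share of mitochondrial RNA differed by -1.68 percentage points, but by 0.0676 points without the 10 most abundant nuclear rows in the total and by 0.0325 points without NC_002333.4, an alternative chosen after the data were seen. For the rRNA share the first of these gave 0.0946 points, against -1.28. With a library left out the differences lay within -3.03 to -0.34 points for mitochondrial RNA, -0.78 to -0.0453 for mRNA, -2.24 to -0.32 for rRNA and -0.0113 to 0.0322 for tRNA, and within -0.0584 to 0.0804 for the log2 ratio of rRNA to mRNA. For mitochondrial RNA, mRNA and rRNA the outer value came without *pex5*-/- replicate 1 and the inner without *pex5*-/- replicate 2. The other alternatives of total, filter and rows for the shares and this ratio moved them by less than 1 SD between replicates. That SD rests on 2 libraries per genotype. With 2 libraries per genotype, leaving 1 out cannot move a value by more than this SD, so for those alternatives the bound says nothing on stability. The mRNA share nevertheless differed by -0.0476 points without the 10 most abundant nuclear rows, against -0.41. Without the mitochondrial rRNA rows in the total it differed by -0.76 points. The count of genes called by limma ranged from 0 to 9 with a library left out (9 without WT replicate 1, 3 without WT replicate 4), and that of mitochondrial rows from 0 to 1, which was NC_002333.17 without WT replicate 1 (log2 difference 1.71, adjusted p = 0.0466). Genes at an unadjusted p under 0.05 were 85 higher and 36 lower in the deposited scale, 62 and 59 with equal totals, and 50 and 67 with equal totals outside the mitochondrial genome, where the median of all genes was -0.12. Among the 21 rows, the log2 difference kept its direction in 16 under the changes of pseudocount, filter, scaling and weights that could be run, the mean of 50 TMM leaving 14 of the rows. Of these 16, 8 also kept it with each library left out, and so did NC_002333.13 and NC_002333.21 with 3 libraries left out in turn, since they fell under the filter without the remaining one. With equal totals it became -0.0897 for NC_002333.4, -0.0136 for NC_002333.18, -0.0470 for NC_002333.1 and -0.0379 for *mt-nd6*. With equal totals outside the mitochondrial genome it became -0.13, -0.0482, -0.0822 and -0.0758 for these rows and -0.0346 for *mt-nd1*. With a library left out the direction turned within -0.0888 to 0.10 for NC_002333.4, -0.11 to 0.31 for *mt-nd1*, -0.15 to 0.29 for NC_002333.18, -0.25 to 0.34 for NC_002333.1, -0.53 to 0.0869 for *mt-co1*, -0.11 to 0.54 for NC_002333.9, -0.13 to 0.0929 for *mt-co3*, -0.20 to 0.0651 for *mt-nd3*, -0.41 to 0.23 for *mt-nd4*, -0.0721 to 0.19 for *mt-nd6* and -0.15 to 0.0417 for *mt-cyb*. Rows without overlap numbered from 4 to 11 higher and from 2 to 8 lower with a library left out, where between 29.3% and 37.1% of all genes did so in each direction. The higher rows were 11 without *pex5*-/- replicate 2, 10 without WT replicate 4 and 7 without WT replicate 1, and the lower rows were 8 without *pex5*-/- replicate 1 and 6 without either WT library. The lone partner of a library left out was assumed to vary like the other genotype. The cause of these turns was not tested. A row without overlap between the genotypes cannot turn when a library is left out. The ratio with the longer rRNA alone was not run, since the rows do not give lengths. It was computed with NC_002333.4 instead.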
